A study of Mus musculus with 6 samples.

Results

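Neutrophils carry several kinds of storage granule, and 10 genes of the secondary (specific) and tertiary (gelatinase) granules were followed here in CD4+CD25+ regulatory T cell (Treg) preparations. The genes were Ngp, Camp, Ltf, Lcn2, Chil3, Wfdc21, Mmp8, Mmp9, Hp and Cd177. They were found through the platform's annotation as probe sets with 1 gene symbol, matched by current name or alias. This gave 11 of the 22626 probe sets that are not controls, 2 of them for Mmp9 and 1 for each other gene, out of 12393 genes with a probe set of their own. CD4+CD25+ cells were enriched with magnetic beads from MBD2-/- mice (3 arrays, Mbd2 KO) and from wild-type mice (3 arrays, WT), and all mice had the Balb/c background. Mbd2 encodes a protein that binds methylated CpG dinucleotides in DNA. The submitters describe the samples as independent, and magnetic separation leaves whatever other cells the beads retain. The 10 genes were chosen with this KO and WT contrast already known. Their differences are therefore given as a description with a standard error (SE) and no p-value.

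Granule proteins are made in developing neutrophils of the bone marrow and stored in the order in which they are made. Primary granules fill first with myeloperoxidase and serine proteases, specific granules follow with lactoferrin, lipocalin 2 and the cathelicidin, and gelatinase granules come last. The transcription factor C/EBP epsilon is required for specific granule genes, and mature blood neutrophils carry little of these transcripts. Regulatory T cells are not known for making granules of this kind.

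Of the 10 genes, 7 had a promoter in the RefSeq table of build GRCm38.p6, each running from 250 bases before the transcription start to 50 bases after it. Ngp, Camp, Ltf and Mmp8 lie on chromosome 9, and Lcn2 and Mmp9 on chromosome 2. The 5 promoters below belong to the genes with the largest differences and to Mmp8, a granule collagenase with a smaller one. Capitals mark CpG dinucleotides, the sequence that Mbd2 binds when it is methylated.
Ngp, chr9:110419558-110419857, plus strand: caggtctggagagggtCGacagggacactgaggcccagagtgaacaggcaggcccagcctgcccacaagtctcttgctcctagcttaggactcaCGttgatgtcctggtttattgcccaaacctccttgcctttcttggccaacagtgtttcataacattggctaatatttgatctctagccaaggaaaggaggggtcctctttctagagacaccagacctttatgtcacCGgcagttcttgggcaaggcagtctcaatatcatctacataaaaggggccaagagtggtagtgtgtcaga
Camp, chr9:109849407-109849706, minus strand: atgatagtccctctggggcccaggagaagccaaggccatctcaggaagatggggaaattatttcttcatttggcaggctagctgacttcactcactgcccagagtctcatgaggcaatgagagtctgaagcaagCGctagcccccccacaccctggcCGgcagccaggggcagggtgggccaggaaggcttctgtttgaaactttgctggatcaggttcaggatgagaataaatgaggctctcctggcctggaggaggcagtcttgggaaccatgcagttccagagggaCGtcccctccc
Ltf, chr9:111019042-111019341, plus strand: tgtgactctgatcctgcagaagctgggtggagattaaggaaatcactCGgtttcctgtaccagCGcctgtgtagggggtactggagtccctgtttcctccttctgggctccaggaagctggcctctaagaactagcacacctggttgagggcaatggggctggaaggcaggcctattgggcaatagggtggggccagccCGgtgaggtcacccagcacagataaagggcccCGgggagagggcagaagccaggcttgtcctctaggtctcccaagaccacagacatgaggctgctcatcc
Lcn2, chr2:32387690-32387989, minus strand: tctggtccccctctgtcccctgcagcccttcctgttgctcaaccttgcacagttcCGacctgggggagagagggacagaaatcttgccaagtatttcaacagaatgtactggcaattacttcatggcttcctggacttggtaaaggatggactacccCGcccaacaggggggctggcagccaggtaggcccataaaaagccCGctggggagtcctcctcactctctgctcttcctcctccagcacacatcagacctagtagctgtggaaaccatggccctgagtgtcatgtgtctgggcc
Mmp8, chr9:7558179-7558478, plus strand: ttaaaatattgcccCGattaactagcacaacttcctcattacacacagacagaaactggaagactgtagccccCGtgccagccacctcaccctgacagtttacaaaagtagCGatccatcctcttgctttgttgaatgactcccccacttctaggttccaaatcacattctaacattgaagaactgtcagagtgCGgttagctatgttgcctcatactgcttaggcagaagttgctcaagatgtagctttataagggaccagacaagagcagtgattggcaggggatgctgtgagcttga

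These promoters were poor in CpG. The 7 promoters held 3 or 4 CpG dinucleotides each, with a median of 3, against a median of 7 and quartiles of 3 and 20 over all 32851 promoters of the table. Of all promoters, 38.0% held 4 or fewer. The C/EBP motif, searched as TTGCNNAA on both strands, was found in 4 of the 7 (Ngp, Ltf, Lcn2 and Mmp8), against 10.8% of all promoters. Ngp held 2 such matches and the other 3 held 1 each. The core bound by PU.1 and other ETS factors, searched as GAGGAA on both strands, was found in 4 of the 7 (Ltf, Lcn2, Mmp8 and Cd177), against 28.3% of all promoters. TATAAA, the TATA box, was found on either strand in 3 of the 7 (Chil3, Mmp8 and Cd177), against 13.6%. A TTGCNNAA match can hold a CpG in its free bases, and the other searched motifs do not contain one another. DNA methylation was not measured on these arrays, and a match describes the letters only.

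The arrays themselves differed. WT replicate 3 correlated with the other 5 arrays at 0.749 to 0.767 across probe sets, while the others correlated with each other at 0.956 to 0.997. Its lower quartile was 5.0 on the log2 scale, against 4.56 to 4.62 on the other arrays. Its upper quartile was 6.64, against 7.20 to 7.31. Dim probe sets were thus listed higher there and bright ones lower. Over all tested probe sets, its median difference from the mean of WT replicates 1 and 2 was -0.74. Values are given with and without WT replicate 3. The targeted gene Mbd2 was at 5.93, 5.71 and 6.14 (log2) in Mbd2 KO replicates 1, 2 and 3, against 8.80, 8.66 and 6.93 in WT replicates 1, 2 and 3 on its brighter probe set. Its other probe set was at 4.57, 4.68 and 4.64 in Mbd2 KO, against 6.70, 6.92 and 6.38 in WT. The Treg regulator Foxp3 was at 7.98, 6.62 and 8.17 in Mbd2 KO, against 8.83, 8.74 and 6.93 in WT. The T cell receptor subunit gene Cd3e was at 10.54, 9.94 and 10.43 in Mbd2 KO, against 10.90, 10.89 and 10.02 in WT. Foxp3 and Cd3e were thus lowest in Mbd2 KO replicate 2 and WT replicate 3 of their groups. In WT replicate 3 bright probe sets in general were listed lower.

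All 10 granule genes were higher in Mbd2 KO than in WT. On the deposited log2 scale, the median difference of the 10 genes, KO minus WT, was 3.86 with 6 arrays and 3.90 without WT replicate 3, beside medians of 0.15 and -0.06 over all 13575 probe sets tested. Dim WT means make some of these differences lower bounds. With 3 genes at their bound the median was at least 3.47 with 6 arrays, and with 5 genes at their bound at least 3.48 without WT replicate 3. In 10 of the 11 probe sets every KO array lay above every WT array, a pattern held by 10.4% of all probe sets tested. The exception was the second Mmp9 probe set, and without WT replicate 3 the count was 11 of 11, beside 15.6% of all. RNA from more cells that express these genes and more RNA per cell cannot be told apart in such preparations.

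**Figure D1:**
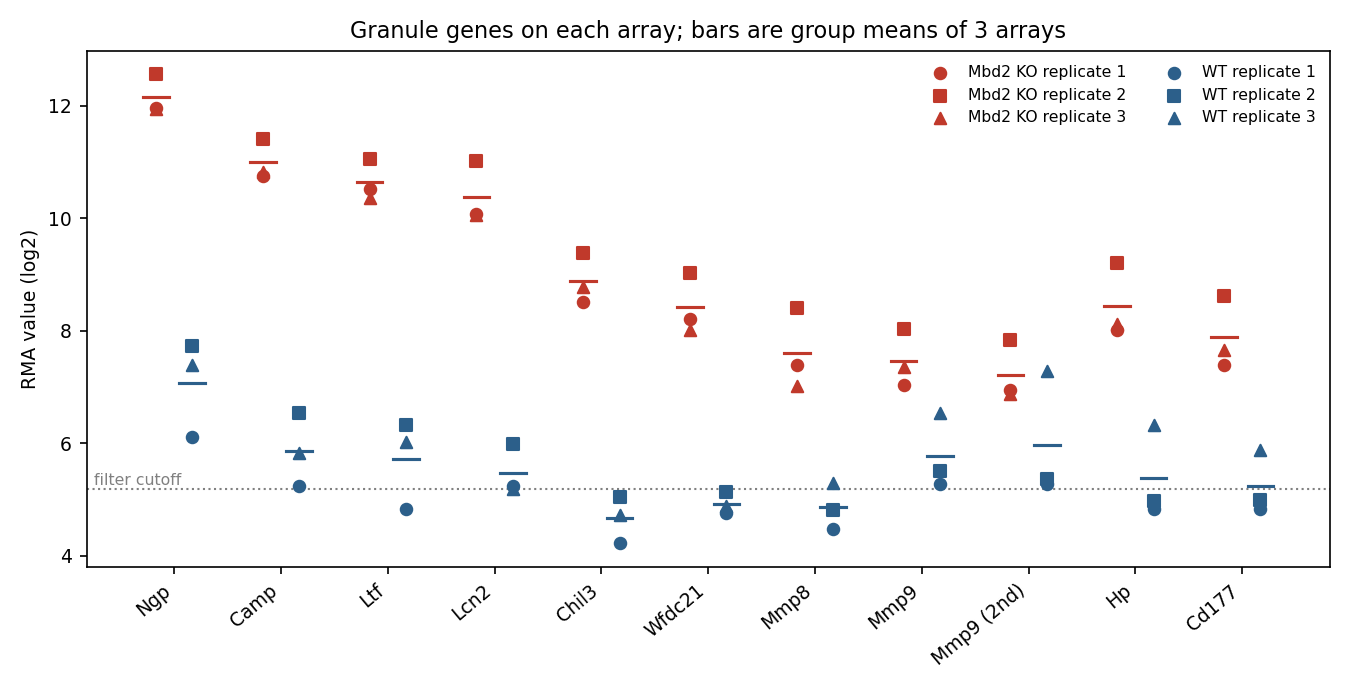
RMA values (log2, vertical axis) of the 11 granule gene probe sets on each array, Mbd2 KO in red left of WT in blue, with symbols for replicates and bars for group means. KO arrays lie above WT arrays everywhere except for WT replicate 3 on the second Mmp9 probe set, and Mbd2 KO replicate 2 is the highest array throughout.

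Among the antimicrobial and iron-binding proteins of specific granules, Ngp encodes neutrophilic granule protein, a relative of the cathelicidins and cystatins. Ngp was at 11.95, 12.56 and 11.94 in Mbd2 KO replicates 1, 2 and 3, against 6.11, 7.72 and 7.40 in WT replicates 1, 2 and 3. The groups lay 4.21 log2 units apart at their closest, and the lowest WT value was that of replicate 1. Camp encodes the cathelicidin precursor, whose carboxy-terminal peptide kills bacteria. Camp was at 10.76, 11.41 and 10.82 in Mbd2 KO, against 5.25, 6.54 and 5.82 in WT. The KO values lay close together (SD 0.36, n = 3) and the WT values were more spread (SD 0.65, n = 3). Ltf encodes lactoferrin, which binds iron. Ltf was at 10.51, 11.06 and 10.36 in Mbd2 KO, against 4.83, 6.32 and 6.02 in WT. Its log2 difference was 4.92 (SE 0.44), or 5.07 (SE 0.45) without WT replicate 3. Lcn2 encodes lipocalin 2, which captures bacterial siderophores. Lcn2 was at 10.07, 11.01 and 10.05 in Mbd2 KO, against 5.25, 5.98 and 5.19 in WT. This was a log2 difference of 4.91 (SE 0.37), or 4.76 (SE 0.36) without WT replicate 3, and WT replicate 3 was the lowest array. On all 4 genes the KO values stood near the top of each array. Ngp, for example, was at the 99.1st, 99.4th and 99.0th percentile of its KO arrays, against the 58.1st, 80.6th and 88.2nd of its WT arrays.

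Chil3 and Wfdc21 were near the dim end of the arrays in WT. Chil3 encodes Ym1, a chitinase-like protein of neutrophils and of alternatively activated macrophages. Chil3 was at 8.51, 9.38 and 8.77 in Mbd2 KO, against 4.23, 5.04 and 4.72 in WT. Wfdc21 encodes a small secreted protein with a WAP domain, the fold of several protease inhibitors. Wfdc21 was at 8.21, 9.03 and 8.01 in Mbd2 KO, against 4.76, 5.14 and 4.88 in WT. The files hold no detection calls, and the WT means of both genes lay under the cutoff of 5.18 set on dim probe sets. Their folds are therefore lower bounds, with WT arrays raised to the cutoff, at least 13.03-fold for Chil3 and at least 9.40-fold for Wfdc21. The same bounds held without WT replicate 3.

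The granule metalloproteinases showed smaller differences. Mmp8 encodes neutrophil collagenase, a protease of specific granules. Mmp8 was at 7.39, 8.40 and 7.01 in Mbd2 KO, against 4.49, 4.82 and 5.29 in WT. The groups did not overlap, and its fold was at least 5.22 with 6 arrays and at least 5.35 without WT replicate 3. Mmp9 encodes gelatinase B, the enzyme that gives gelatinase granules their name, and macrophages and other cells make it too. Its first probe set was at 7.03, 8.03 and 7.35 in Mbd2 KO, against 5.27, 5.50 and 6.54 in WT. Its second probe set was at 6.94, 7.83 and 6.88 in Mbd2 KO, against 5.27, 5.37 and 7.28 in WT. On the second probe set WT replicate 3 lay above Mbd2 KO replicates 1 and 3, so the groups overlapped. The log2 differences were 1.70 (SE 0.43) and 1.24 (SE 0.60) with 6 arrays, against 2.08 (SE 0.29) and 1.90 (SE 0.29) without WT replicate 3. Both Mmp9 probe sets therefore gave the same direction, with a size that rested in part on that array.

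Hp and Cd177 completed the set. Hp encodes haptoglobin, which binds free haemoglobin and is made by the liver as well as stored in neutrophil granules. Hp was at 8.02, 9.20 and 8.11 in Mbd2 KO, against 4.84, 4.97 and 6.32 in WT. Its log2 difference was 3.07 (SE 0.52), or 3.54 (SE 0.36) without WT replicate 3, where the WT mean of 4.90 lay under the cutoff. Cd177 encodes a surface glycoprotein of neutrophils that is also held in granule membranes. Cd177 was at 7.40, 8.62 and 7.65 in Mbd2 KO, against 4.83, 5.0 and 5.88 in WT. Its log2 difference was 2.65 (SE 0.43), or 2.98 (SE 0.35) without WT replicate 3, where the WT mean of 4.91 also lay under the cutoff. Without that array the folds were at least 9.59 for Hp and at least 6.52 for Cd177. For both genes WT replicate 3 was the WT array nearest to the KO arrays, and the groups did not overlap.

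**Figure D2:**
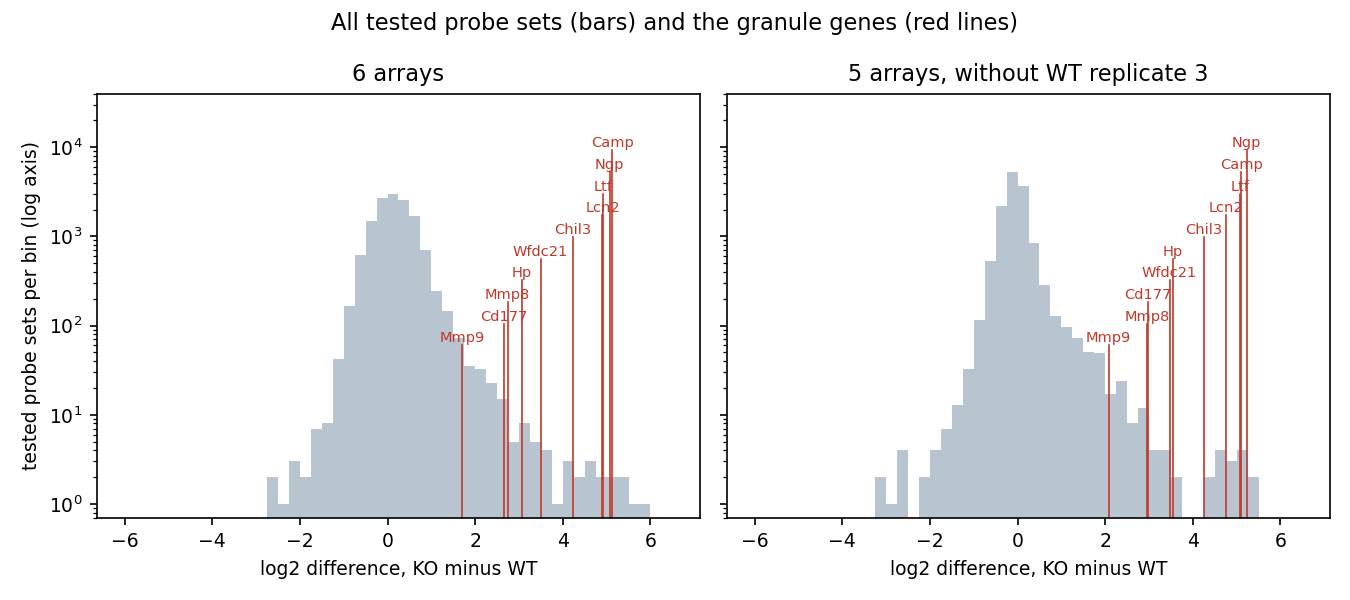
Log2 differences, KO minus WT (horizontal axis), of all 13575 tested probe sets as a histogram with a log count axis, with 6 arrays on the left and without WT replicate 3 on the right. Red lines, whose heights only separate the names, mark the granule genes, from Mmp9 at 1.70 to Camp at 5.12 with 6 arrays and from Mmp9 at 2.08 to Ngp at 5.23 without WT replicate 3.

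All 10 genes passed the filter on dim probe sets, which used the mean over the 6 arrays. By the WT mean alone 7 of the 10 would have passed, and by WT replicates 1 and 2 alone 5 would have. The others entered through the KO arrays. In the limma fit over all tested probe sets, 6 of the 10 genes passed an adjusted p of 0.05 with 6 arrays (Ngp, Camp, Ltf, Lcn2, Chil3 and Wfdc21), where 0.103% of all probe sets did. Without WT replicate 3 the count was 10 of 10, where 1.40% of all did. Without both WT replicate 3 and Mbd2 KO replicate 2, an alternative chosen after seeing the data, it was again 10 of 10, where 18.7% of all did. The count of 6 depended on each KO array. It was 0 without Mbd2 KO replicate 1, without replicate 2 or without replicate 3 in the same limma fit, although in each of these fits 10 of the 10 had an unadjusted p under 0.05, beside 2.65%, 2.42% and 2.78% of all probe sets. Nothing is read from these counts, since the genes were chosen on this contrast.

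Mbd2 KO replicate 2 was the highest KO array in 11 of 11 probe sets, an order held by 30.5% of all tested probe sets. It lay above the mean of Mbd2 KO replicates 1 and 3 by 0.62 (Ngp) to 1.20 (Mmp8) log2 units, with a median of 0.92, beside a median of -0.10 over all tested probe sets. Mbd2 KO replicates 1 and 3 differed from each other by at most 0.38 in either direction. In WT, replicate 2 was above replicate 1 in 11 of 11 probe sets, beside 48.6% of all. That gap was 1.61 for Ngp, 1.49 for Ltf and 1.29 for Camp, but 0.10 to 0.82 for the other probe sets. The array of highest KO values was thus the same for every gene, and the gap between WT replicates 1 and 2 was unequal.

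WT replicate 3 split the genes. It was the highest WT array for Mmp8, both Mmp9 probe sets, Hp and Cd177, 5 of 11 probe sets, beside 26.4% of all. For Ngp, Camp, Ltf, Lcn2, Chil3 and Wfdc21 WT replicate 2 was the highest. Ranks within each array, which do not depend on its spread, kept part of this split. Hp stood at the 67.0th percentile of WT replicate 3, against the 34.8th and 38.6th in WT replicates 1 and 2. The second Mmp9 probe set stood at the 86.7th, against the 44.9th and 46.6th. Mmp8 was at the 34.2nd percentile there, no higher than its 34.6th in WT replicate 2. Ngp, by contrast, ranked highest in WT replicate 3, at the 88.2nd percentile. Lcn2 was at the 30.6th percentile of WT replicate 3, against the 44.5th and 55.7th in WT replicates 1 and 2.

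**Figure D3:**
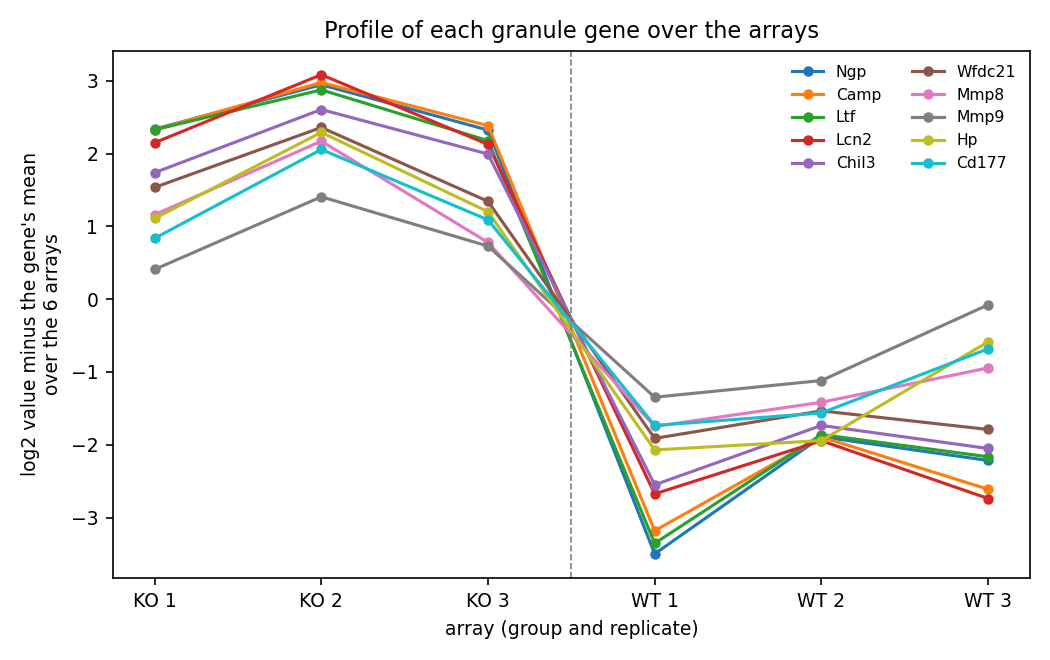
Profile of each granule gene over the 6 arrays, as the log2 value minus the gene's own mean (vertical axis), KO arrays left of WT arrays, with Mmp9 by its first probe set. All lines peak at Mbd2 KO replicate 2, where the mean of the 10 lines is 2.48, and the lines of Mmp9, Hp, Cd177 and Mmp8 are highest among WT arrays at replicate 3.

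Genes outside the set with the most similar profile were sought among 8180 tested genes. The measure was the root mean square difference over the 6 arrays from the mean profile of the 10 genes, after each was centred on its own mean. The 6 nearest were Ifitm6 (0.29), Mgst1 (0.34), F13a1 (0.34), Fpr2 (0.38), Lyz1 (0.39) and Csf1r (0.47), against a median of 1.93 over all candidates. Wfdc21 and Chil3 lay at 0.26 each from the mean they belong to, and Mmp9 was the farthest of the set at 1.08. Ifitm6, an interferon-induced transmembrane protein family member, was at 8.69, 10.14 and 8.85 in Mbd2 KO, against 4.81, 4.99 and 5.62 in WT. Fpr2, a formyl peptide receptor of phagocytes, was at 7.70, 9.22 and 7.84 in Mbd2 KO, against 4.80, 4.93 and 5.36 in WT. Csf1r, the growth factor receptor of macrophages, was at 8.28, 9.57 and 7.96 in Mbd2 KO, against 5.45, 5.57 and 5.57 in WT. The nearest profiles thus included monocyte and macrophage genes as well as phagocyte genes.

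Camp, Ngp and Ltf lie in the same region of chromosome 9. In the RefSeq order, 28 other protein-coding genes lie between Camp and Ltf, of which 18 had a probe set and 11 were tested. None of these 11 passed an adjusted p of 0.05 in the limma fits. Of all probe sets 0.103% did with 6 arrays and 1.40% without WT replicate 3. In the same fits 0 and 2 of the 11 had an unadjusted p under 0.05, beside 4.08% and 21.6% of all. The log2 differences of the 11 ran from -0.42 (Als2cl) to 0.78 (Cdc25a), with a median of 0.12, and from -0.45 to 0.20 without WT replicate 3. The tested genes between Camp and Ltf thus lay far below both on this scale. An effect of the region was not tested.

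Other genes assigned to specific and gelatinase granules were taken from a list of 28, of which 21 had a probe set and 15 were tested. With 6 arrays, 15 of the 15 were higher in Mbd2 KO and 2 passed the threshold, Lyz2 and Lyz1, beside 0.103% of all probe sets. Without WT replicate 3, 13 were higher and 3 passed, with Fpr2 as the third, beside 1.40% of all. The list's median log2 difference was 0.70 with 6 arrays and 0.88 without WT replicate 3, beside 0.15 and -0.06 over all tested probe sets. The share of all probe sets higher in Mbd2 KO was not counted, here or for the lists below. Lyz2, a lysozyme of phagocytes, was at 11.20, 11.82 and 10.81 in Mbd2 KO, against 5.89, 7.13 and 6.80 in WT. The probe sets of the near-identical Lyz1 and Lyz2 may share signal. Slpi, an inhibitor of neutrophil elastase, was at 8.98, 11.26 and 9.03 in Mbd2 KO, against 6.92, 8.12 and 7.76 in WT, a log2 difference of 2.15 that did not pass. Cybb, the catalytic subunit of the phagocyte oxidase held in specific granule membranes, was at 6.85, 8.14 and 6.54 in Mbd2 KO, against 5.27, 5.94 and 5.13 in WT and did not pass either. Other proteins of these membranes that T cells also carry had small differences, such as 0.13 for Itgb2 and 0.57 for Cyba with 6 arrays, and -0.25 and 0.10 without WT replicate 3, none of which passed. The log2 differences of the 15 genes thus ran from 0.13 (Itgb2) to 4.67 (Lyz2) with 6 arrays and from -0.30 (B4galt1) to 4.76 (Lyz2) without WT replicate 3.

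For comparison, primary granule genes were taken from the same arrays. Of 6 tested genes, 6 were higher in Mbd2 KO with a median log2 difference of 1.49, and 1.63 without WT replicate 3. None passed an adjusted p of 0.05 in either limma fit, while 5 and 6 had an unadjusted p under 0.05, beside 4.08% and 21.6% of all probe sets. Mpo, which encodes myeloperoxidase, was at 8.36, 6.82 and 7.51 in Mbd2 KO replicates 1, 2 and 3, against 4.89, 5.58 and 5.10 in WT. Mpo was thus lowest in the KO array where the specific granule genes were highest. Of the 6 genes, Ctsc and Serpinb1a had their highest KO value in replicate 2, as 30.5% of all tested probe sets did. Elane, Prtn3 and Ctsg, which encode serine proteases, were like Mpo lowest there. Whether this order differs between the granule classes was not tested.

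The neutrophil cytosolic and receptor list had 12 tested genes, of which 0 passed with 6 arrays (5 at an unadjusted p under 0.05, beside 4.08% of all probe sets) and 4 without WT replicate 3, all higher, beside 1.40% of all. S100a9, a subunit of the calcium-binding protein calprotectin, was at 12.999, 13.46 and 13.06 in Mbd2 KO, against 7.24, 8.78 and 5.60 in WT. Differences were smaller for the receptor genes Csf3r and Cxcr2. This did not hold for every receptor, since Fpr2 had a log2 difference of 3.22, or 3.39 without WT replicate 3. Csf3r, the receptor for G-CSF, was at 6.57, 7.66 and 6.69 in Mbd2 KO, against 6.08, 6.10 and 6.46 in WT, and Cxcr2, a chemokine receptor, at 5.31, 6.0 and 5.33 in Mbd2 KO, against 5.02, 5.07 and 5.59 in WT. The groups overlapped for Cxcr2, and neither gene passed. Among 9 tested transcription factors of granulocytes 0 passed in either limma fit, with 4 and 6 at an unadjusted p under 0.05, beside 4.08% and 21.6% of all. These counts hold both directions, since 6 of the 9 were higher in Mbd2 KO with 6 arrays and also 6 without WT replicate 3. Their log2 differences ran from -0.32 to 1.71 (median 0.88) with 6 arrays and from -0.72 to 2.07 (median 0.67) without WT replicate 3. Spi1, which encodes PU.1, was at 7.22, 8.06 and 6.92 in Mbd2 KO, against 5.40, 5.65 and 6.33 in WT. Cebpe and Ly6g were not analysed here.

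**Figure D4:**
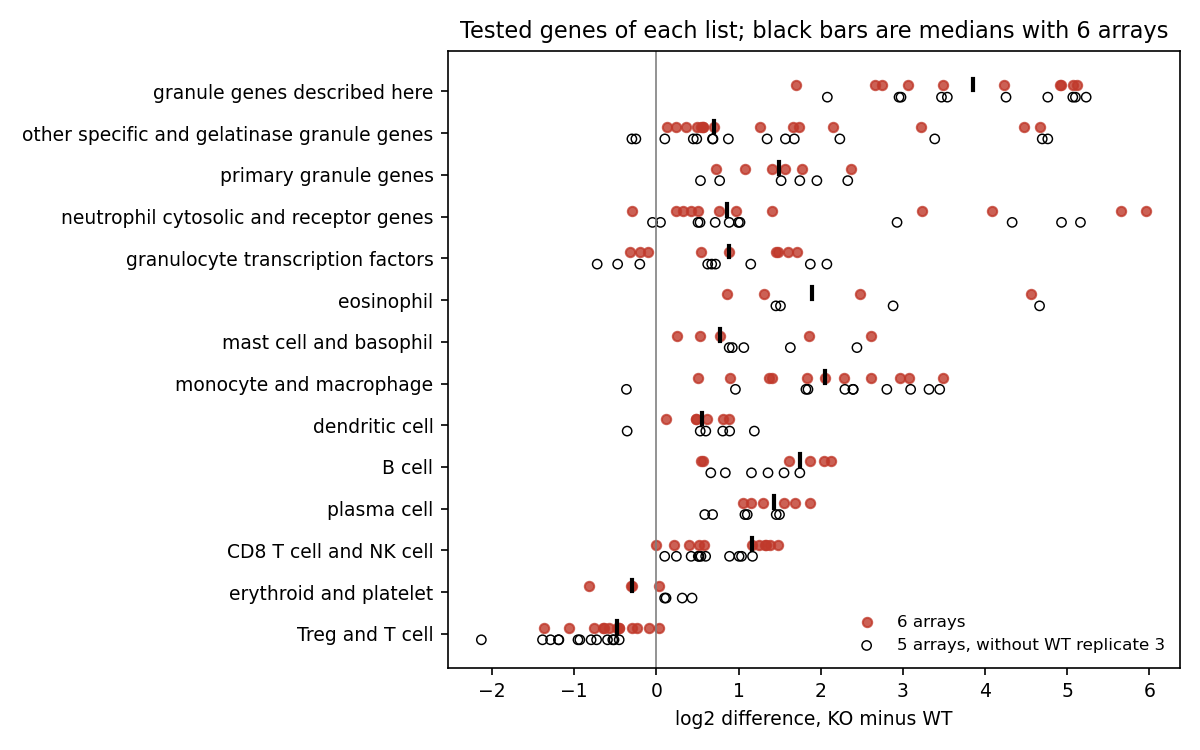
Log2 differences, KO minus WT (horizontal axis), of the tested genes of each list, with 6 arrays in red and without WT replicate 3 as open circles. The 10 granule genes have a median of 3.86, primary granule genes 1.49 and Treg and T cell genes -0.48 with 6 arrays.

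Levels of other cells' markers were compared over the same arrays. Of 8 marker lists of other cell types, 6 had a higher summed linear level in every KO array than in every WT array. Such a sum follows the brightest genes of a list. By single tested gene, all KO arrays lay above all WT arrays in 3 of 4 eosinophil and 3 of 5 mast cell and basophil genes. The same held for 9 of 11 monocyte and macrophage, 3 of 6 dendritic cell and 5 of 6 B cell genes. It held for 3 of 6 plasma cell, 3 of 11 CD8 T cell and NK cell, and 0 of 4 erythroid and platelet genes. Of all single probe sets tested, 10.4% held this pattern. Among the KO arrays alone, 8 of the 8 lists had their highest mean log2 value, over all genes with a probe set, in replicate 2. Single tested genes were less uniform. Of eosinophil genes 2 of 4 were highest there, and of mast cell and basophil genes 3 of 5. Of monocyte and macrophage genes 10 of 11 were, beside 30.5% of all tested probe sets. The summed linear level of the granule genes was 9559 to 15712 in Mbd2 KO, against 337 to 653 in WT. That of monocyte and macrophage markers was 1599 to 4184 in Mbd2 KO, against 553 to 735 in WT. Of its tested genes 11 of 11 were higher in Mbd2 KO with 6 arrays and 1 passed (F13a1), beside 0.103% of all probe sets. Without WT replicate 3, 10 of 11 were higher and 2 passed (F13a1 and Csf1r), beside 1.40% of all. The summed level of eosinophil markers was 1079 to 1642 in Mbd2 KO, against 188 to 332 in WT. Of its tested genes 4 of 4 were higher in both fits. With 6 arrays 1 passed (Prg2), beside 0.103% of all, and 4 passed without WT replicate 3, beside 1.40%.

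The other 6 lists had no gene past the threshold with 6 arrays. With these arrays, 5 of 5 mast cell and basophil, 6 of 6 dendritic cell, 6 of 6 B cell, 6 of 6 plasma cell, 10 of 11 CD8 T cell and NK cell, and 1 of 4 erythroid and platelet genes were higher in Mbd2 KO. In that limma fit 0 of these passed, with 3, 1, 4, 2, 3 and 0 at an unadjusted p under 0.05, beside 4.08% of all probe sets. Without WT replicate 3 the counts higher were 5 of 5, 5 of 6, 6 of 6, 6 of 6, 11 of 11 and 4 of 4, and 2, 0, 1, 0, 1 and 0 passed, beside 1.40% of all. The dendritic cell, plasma cell, and erythroid and platelet lists, with 0 passed, had 5, 2 and 2 at an unadjusted p under 0.05 in that fit, beside 21.6% of all. The erythroid and platelet median was -0.30 with 6 arrays and 0.22 without WT replicate 3, beside 0.15 and -0.06 over all tested probe sets. The share of all probe sets higher in Mbd2 KO was not counted, so the counts higher have no such share beside them.

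Treg and T cell genes ran lower. Their summed level was 6163 to 9936 in Mbd2 KO, against 14434, 14275 and 6784 in WT replicates 1, 2 and 3. Only WT replicate 3 overlapped the KO arrays, and bright probe sets in general were listed lower on that array. With 6 arrays 1 of 13 tested genes was higher and the median log2 difference was -0.48. In that limma fit 0 passed and 1 had an unadjusted p under 0.05, beside 0.103% and 4.08% of all probe sets. Without WT replicate 3, 0 of 13 were higher, the median was -0.93 and 2 fell past the threshold, Nrp1 and Penk, beside 1.40% of all. In this limma fit 10 of the 13 had an unadjusted p under 0.05, beside 21.6% of all. RMA values have no true zero, so no marker is at 0. The part of other cells in the granule gene levels was not tested.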

How the data were processed

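RNA of 6 preparations was labelled with biotin and measured on single-colour arrays, 1 array each. The deposited table holds 1 log2 value per probe set and array, which the authors made with RMA (background correction, quantile normalization and summary of probes), per the submitters' processing notes. The RMA software and which arrays it normalized together: not given in the sources used here. The deposited values of WT replicate 3 had quartiles of 5.0 and 6.64, against 4.56 to 4.62 and 7.20 to 7.31 on the other arrays. That array was thus not on the distribution of the others. The number of arrays limits the precision.

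Of 22690 probe sets, 64 controls were left out. Symbols came from the platform annotation, with old names replaced by those of the same gene ID in RefSeq (GRCm38.p6). Of the rest 20380 had 1 symbol, 691 several and 1555 none, and none was named from the last 2 kinds. A filter on the mean of the 6 arrays removed the dimmest 40% (under 5.18), and limma 3.58.1 under R 4.3.3 was fitted to the other 13575 (group as the only term, Benjamini-Hochberg adjustment, threshold 0.05). Each gene was represented by its brightest probe set. The fit was tested on simulated data.

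The genes and lists were written with earlier results of these data known, and lists are described by counts and medians. Genes named were all 10 granule genes, up to 3 of each other list by size of difference with a few further list members chosen after their values were seen (Slpi, Cybb, Cyba, Itgb2, B4galt1, Elane, Csf3r, Cxcr2, Foxp3 and Cd3e, with Ctsg and Ctsc), and the 6 most similar profiles. Alternatives were other filters, scalings, the replicate block, the mean of probe sets and arrays left out. Figures were drawn with matplotlib 3.10.9.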

Additional observations from a re-analysis of the deposited data

How the results depend on the processing

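The direction of all 10 granule genes, and the median of 3.86, held under every alternative run, with single log2 differences from 1.41 (Mmp9 after quantile normalization again) to 5.46 and medians from 3.58 to 4.01 when an array was left out. Counts in the limma fit moved more. With 6 arrays 14 probe sets, 6 granule genes and 2 other granule genes passed, and with no filter these were 8, 3 and 0, the last with 10 at an unadjusted p under 0.05. Other granule genes past the threshold numbered 0 after quantile normalization again, with 6 at an unadjusted p under 0.05. Leaving out each array in turn gave 0 to 190 probe sets, 0 to 10 granule genes and 0 to 3 other granule genes, each highest without WT replicate 3 and lowest without a KO array. Without both WT replicate 3 and Mbd2 KO replicate 2, an alternative chosen after seeing the data, 2537 probe sets (18.7%), 10 granule genes and 12 other granule genes passed. The cause of these shifts was not tested.

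With the replicate number as a block, 10 probe sets, 5 granule genes and 1 other granule gene passed. Whether the numbers pair the samples is not known. Deviations from the group means correlated at 0.15, -0.09 and -0.14 for numbers 1, 2 and 3, and 1 of 6 arrays correlated best with its own number. Deviations within a group of 3 depend on each other, and the unlike WT replicate 3 enters all those of WT. These values therefore cannot decide the question. Signal over background limits Chil3, Wfdc21 and Mmp8, whose WT means lay under the cutoff, and without WT replicate 3 also Hp and Cd177.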

Other observations

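A probe set shared by Chil3 and its neighbour in sequence, Chil4, was left out because it names both genes. It was at 7.43, 8.24 and 7.76 (log2) in Mbd2 KO replicates 1, 2 and 3, against 5.22, 5.24 and 5.78 in WT replicates 1, 2 and 3. Mbd2 KO replicate 2 was again the highest array and the groups did not overlap. The log2 difference, KO minus WT, was 2.40 with 6 arrays and 2.58 without WT replicate 3, and was given no test.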
